A study of Mus musculus with 6 samples.

Results

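The Schlafen family was followed in anti-inflammatory M2 macrophages (Mφs) in which a tRNA fragment, 5′tRF-Glu(CTC), had been targeted. Members were taken by gene symbol, and Slfn1, Slfn2, Slfn3, Slfn4, Slfn5, Slfn8 and Slfn9 were 7 of the 41549 genes in the deposited table. Messenger RNA was sequenced from Mφs differentiated with M-CSF from the bone marrow of wild-type C57Bl/6 N mice, adults by the study's methods. The cells were transfected with a locked nucleic acid antisense oligonucleotide against the fragment (αGlu, 3 libraries) or with a control inhibitor (Ctr, 3 libraries), and both groups received IL-4 and IL-13. The question was how the M2 transcriptome differs once the fragment is targeted. By the study's methods each replicate of primary cells comes from another animal. The labels tie no library to an animal and do not say whether libraries of the same number share one. The study compared the level of the fragment in αGlu and Ctr Mφs by a paired t test. The main test here treats the libraries as unpaired, so p-values cover only the spread between these libraries. The libraries are bulk samples, so fewer cells with a transcript and less of it per cell cannot be told apart.

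Schlafens are proteins that restrain cell growth and viral replication, and many of them are induced by type I interferon in macrophages. Mouse members fall into a short form (Slfn1, Slfn2), an intermediate form (Slfn3, Slfn4) and a long form with a helicase-like region (Slfn5, Slfn8, Slfn9). The family is tied to tRNA: some long Schlafens cut tRNAs, whereas Slfn2 binds tRNAs in T cells and shields them from cleavage by angiogenin, a nuclease that makes tRNA fragments.

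The oligonucleotide is shown because it defines the αGlu group. In the stretch it targets, capitals mark the bases that pair with it.
Antisense inhibitor: taaccactagaccaccaggg
Targeted stretch of the fragment: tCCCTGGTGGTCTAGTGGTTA

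All 7 members lie in 1 cluster on chromosome 11, at chr11:82951349-83215154 of GRCm38, a span of 263.8 kb with 5 genes on the plus strand and 2, Slfn8 and Slfn9, on the minus strand. Each is annotated as protein-coding. The bases before the start site of each member are given because the letters marked in them divide the family. Each line holds the 160 bases before a RefSeq start site (GRCm38.p6), 5′ to 3′ on the strand of the gene, and Slfn8 is given for the more upstream of its 2 listed starts. Capitals mark the letters ACTTCCTG, which hold the shorter core TTCC bound by ETS factors such as PU.1, or GAAANNGAAA, the core of the interferon-stimulated response element (ISRE), on either strand.
Slfn1 (chr11:83116660-83116819, plus strand): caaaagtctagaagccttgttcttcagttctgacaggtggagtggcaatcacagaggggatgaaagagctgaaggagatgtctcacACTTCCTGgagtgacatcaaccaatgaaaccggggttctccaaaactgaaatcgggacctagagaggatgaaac
Slfn2 (chr11:83064952-83065111, plus strand): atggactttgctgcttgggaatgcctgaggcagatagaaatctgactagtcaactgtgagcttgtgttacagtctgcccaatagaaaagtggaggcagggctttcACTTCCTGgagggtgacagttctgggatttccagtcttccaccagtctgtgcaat
Slfn3 (chr11:83191170-83191329, plus strand): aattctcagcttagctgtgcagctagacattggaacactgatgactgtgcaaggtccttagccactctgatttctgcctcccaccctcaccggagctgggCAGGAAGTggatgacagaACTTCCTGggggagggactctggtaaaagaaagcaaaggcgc
Slfn4 (chr11:83175026-83175185, plus strand): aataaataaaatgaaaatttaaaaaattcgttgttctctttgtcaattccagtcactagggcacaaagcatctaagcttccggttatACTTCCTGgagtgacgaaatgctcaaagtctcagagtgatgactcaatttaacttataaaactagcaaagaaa
Slfn5 (chr11:82951942-82952101, plus strand): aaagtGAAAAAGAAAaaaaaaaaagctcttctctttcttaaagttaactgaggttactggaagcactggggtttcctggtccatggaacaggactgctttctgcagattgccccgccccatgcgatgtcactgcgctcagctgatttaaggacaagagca
Slfn8 (chr11:83020811-83020970, minus strand): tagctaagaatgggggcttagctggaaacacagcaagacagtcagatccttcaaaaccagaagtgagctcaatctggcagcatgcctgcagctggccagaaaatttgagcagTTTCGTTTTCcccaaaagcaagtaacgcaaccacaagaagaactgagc
Slfn9 (chr11:82991831-82991990, minus strand): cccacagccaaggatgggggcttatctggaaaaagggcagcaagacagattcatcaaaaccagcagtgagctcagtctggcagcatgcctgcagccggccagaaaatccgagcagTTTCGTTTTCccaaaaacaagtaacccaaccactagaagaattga

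The ETS letters stood within 80 bases of the start in Slfn1, Slfn2, Slfn3 and Slfn4, the short and intermediate members, and occurred on both strands in Slfn3. The ISRE letters stood in Slfn5, Slfn8 and Slfn9, the long members. No member held both sets of letters, although the shorter TTCC or GGAA also occurs in the bases printed for Slfn5, Slfn8 and Slfn9. In the full windows, from 250 bases before the start to 50 after it, ETS letters occurred in 3.33% of 32851 RefSeq windows and ISRE letters in 3.44%, against 4 and 3 of the 7 members. The ETS letters were chosen after the windows had been read, so their count among the members is a description. Slfn1 and Slfn4 shared an unbroken run of 15 bases, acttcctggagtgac, at nearly the same place, 74 and 73 bases before the start. The windows of Slfn8 and Slfn9 were identical in 80.5% of aligned columns, and no other pair passed 49.4%. The κB motif of NF-κB occurred in Slfn1 and Slfn9 (5.89% of all windows), and TTCNNNGAA, the element bound by STAT factors, occurred in none of the members and in 8.30% of all windows.

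Total counts ranged from 17912831 to 30386653 per library, and between 16518 and 51614 of these reads fell on the 7 members. All 8 macrophage markers, among them Csf1r and Adgre1, were above 1 CPM. The 7 markers of the M2 state summed to between 2804 and 6941 CPM, but markers within this sum went in opposite directions. Retnla was at 540, 245 and 289 CPM in Ctr 1, 2 and 3 and 101, 0.0315 and 0.0367 CPM in αGlu 1, 2 and 3. Mgl2 was at 87.9, 66.3 and 83.9 CPM in Ctr and 10.6, 0.504 and 2.35 CPM in αGlu. Arg1 was at 24.3, 45.2 and 41.5 CPM in Ctr and 23.5, 1886 and 1792 CPM in αGlu. The 5 T cell markers summed to at most 0.0944 CPM in any library, with Trac and Cd3g at 0 reads in all 6. CPM denotes counts divided by a library size that carries the TMM factor. Ctr 1, αGlu 1 or both stood apart from the other libraries of their groups for many of the genes described here, but not for all. Values are therefore given per library and, where they bear on a result, without these libraries. The edgeR quasi-likelihood test with Benjamini-Hochberg adjustment called 0 of 11933 genes (0%) when an adjusted p under 0.1 was asked for together with a log2 fold change beyond 1 in either direction, and therefore no member. At an unadjusted p under 0.05 it had 2943 genes, the smallest adjusted p was 0.149, limma-voom called 0 with 3101 genes at an unadjusted p under 0.05, and DESeq2 called 1117.

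Per length, in deposited TPM, Slfn2 was the most abundant member in every library. Its TPM was 662, 969 and 1067 in Ctr 1, 2 and 3 and 1166, 1054 and 1006 in αGlu 1, 2 and 3, which was 57.9% to 75.6% of the summed TPM of the family. Slfn5 was second in every library, with a mean TPM of 280 ± 117 (SD, n = 3) in Ctr and 337 ± 63.7 (SD, n = 3) in αGlu. Slfn1 and Slfn8 came next and exchanged places between libraries: their mean TPM in αGlu was 154 ± 26.1 and 161 ± 3.69 (SD, n = 3), which do not differ beyond their spread. In Ctr the means of Slfn1 and Slfn8 were 99.8 ± 83.0 and 90.0 ± 41.3 (SD, n = 3), again within their spread. Slfn9 and Slfn3 were low, at a mean TPM of 18.7 ± 5.47 and 10.7 ± 3.76 in Ctr and 21.4 ± 5.66 and 15.2 ± 5.66 in αGlu (SD, n = 3). Slfn4 was last in Ctr with a mean TPM of 5.52 ± 4.48 but above Slfn9 and Slfn3 in αGlu with 52.2 ± 33.6 (SD, n = 3). Slfn4 passed both of these in αGlu 2 and αGlu 3 but remained the lowest member in αGlu 1. Slfn9 was above Slfn3 in every library. In Ctr 1, Slfn1 was at 4.65 TPM and lay below Slfn9 and Slfn3.

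**Figure D1:**
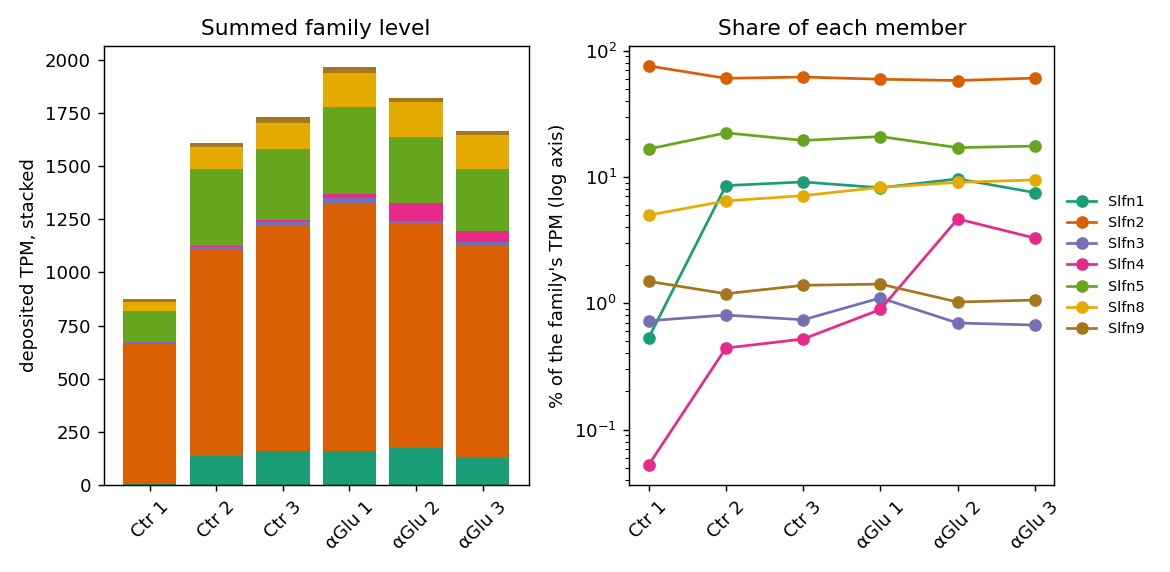
Left, deposited TPM of the 7 members stacked for each library. Right, the share of each member in that sum on a log axis; lines join the values of 1 gene and imply no order of libraries. The sum was lowest in Ctr 1 (875 TPM), and the share of Slfn4 was at most 0.52% in Ctr and 0.89%, 4.65% and 3.28% in αGlu 1, 2 and 3.

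Slfn4, an interferon-induced member known from myeloid cells of the infected stomach, separated the groups most. It had 13, 226 and 257 reads in Ctr 1, 2 and 3, which was 0.591, 9.45 and 11.9 CPM. In αGlu 1, 2 and 3 it had 391, 3324 and 1791 reads, or 22.4, 104.6 and 65.7 CPM. Every αGlu library was above every Ctr library, with Ctr 1 far below the other Ctr libraries and αGlu 1 nearest to them, at 1.88 times the highest Ctr value. The 13 reads of Ctr 1 have an exact 95% Poisson interval of 0.314 to 1.01 CPM, which covers counting error only. The fitted log2 fold change (αGlu over Ctr) was 3.14 ± 1.02 (SE), with an unadjusted p of 0.0214 and an adjusted p of 0.164 in edgeR, so the difference did not pass the test. The SD of log2 CPM was 2.31 within Ctr and 1.14 within αGlu (n = 3 each). Over the 6 libraries, a measure that also holds the difference between groups, it was 2.58 and larger than that of 99.4% of genes tested.

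The call of Slfn4 turned on which libraries entered. Without αGlu 1 its log2 fold change was 3.53 ± 0.76 (SE, edgeR adjusted p = 0.0127) and Slfn4 was the single member called, where 8.05% of 12340 genes were called higher. Without Ctr 1 the log2 fold change was 2.60 ± 0.71 (SE, edgeR adjusted p = 0.351). With both left out, a choice made after the values had been seen, it was 2.996 ± 0.25 (SE, edgeR adjusted p = 0.000304). Slfn4 was again the single member called, where 8.28% of 12239 genes were called higher. DESeq2 on all 6 libraries also called Slfn4 alone among the members (log2 fold change 3.13, adjusted p = 0.0571), where 4.21% of 13742 genes with an adjusted p were called higher. Its mean CPM in αGlu was 6.01 times the mean of Ctr 2 and Ctr 3, whereas this ratio lay between 0.91 and 1.33 for the other 6 members.

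**Figure D2:**
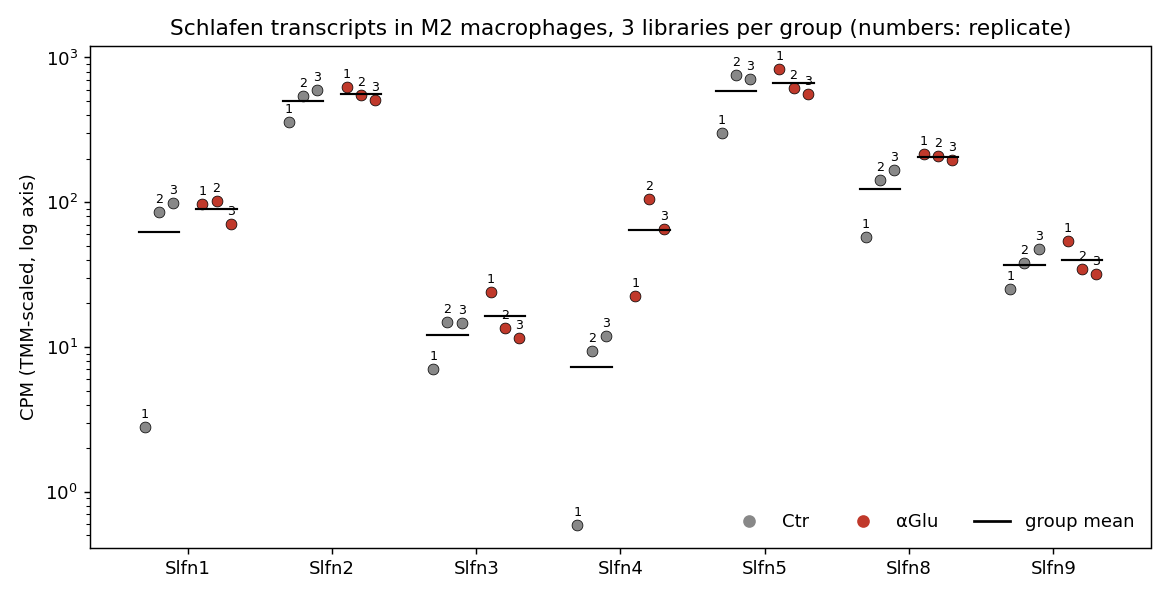
CPM (TMM-scaled, log axis) of each member, with 1 point per library (grey Ctr, red αGlu, replicate number above) and a line at the group mean. Every member was lowest in Ctr 1, and the αGlu libraries lay wholly above the Ctr libraries for Slfn4 and Slfn8 but not for the other members.

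Slfn8, a long Schlafen of which little is known in macrophages, was the other member whose groups did not overlap. It measured 57.9, 142 and 168 CPM in Ctr 1, 2 and 3 and 214, 210 and 196 CPM in αGlu 1, 2 and 3. The αGlu libraries lay close together and the lowest was 1.17 times the highest Ctr library. The log2 fold change was 0.75 ± 0.38 (SE), with an edgeR adjusted p of 0.258. Without Ctr 1 it was 0.42 ± 0.12 (SE, edgeR adjusted p = 0.351). Across all genes tested, 14.2% lay without overlap above the Ctr libraries, beside 2 of 7 members, and 15.9% lay wholly below, beside 0 of 7 members. At an unadjusted p under 0.05 the higher genes were 12.7% of those tested, beside 1 of 7 members, Slfn4, and the lower genes 11.9%, beside 0 of 7.

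Slfn9 lies next to Slfn8 on the same strand and has the most similar bases before its start. Its values followed those of Slfn8 only in part, with a Pearson r of log2 CPM of 0.677 over the 6 libraries. Slfn9 measured 25.3, 38.2 and 47.8 CPM in Ctr 1, 2 and 3 and 53.6, 34.6 and 31.9 CPM in αGlu 1, 2 and 3. As for Slfn8, levels rose from Ctr 1 through Ctr 2 and Ctr 3 to αGlu 1, the highest library. For Slfn9, however, αGlu 2 and αGlu 3 were below Ctr 2. The log2 fold change was 0.11 ± 0.29 (SE, edgeR adjusted p = 0.825). There were 2.29, 3.72 and 3.52 reads of Slfn8 for each read of Slfn9 in the Ctr libraries. The αGlu libraries had 4.0, 6.07 and 6.13, so this ratio, which does not depend on depth, did not overlap between the groups. It was chosen after the values were seen and was not tested. In GENCODE transcripts, 14.6% of the 50-base words of Slfn8 and 11.2% of those of Slfn9 also occur in another Schlafen gene, mostly the pseudogene Slfn10-ps, and how the authors assigned such reads is not given in the sources used here.

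Slfn5, the mouse counterpart of human SLFN5, which acts in the nucleus, measured 299, 761 and 710 CPM in Ctr 1, 2 and 3. In αGlu 1, 2 and 3 it was 836, 612 and 561 CPM. The highest and the lowest library were both replicate 1, of αGlu and of Ctr, and the remaining αGlu libraries were below the remaining Ctr libraries. The log2 fold change was 0.18 ± 0.38 (SE, edgeR adjusted p = 0.770). It was -0.13 without Ctr 1 and -0.33 ± 0.10 (SE, edgeR adjusted p = 0.0395) without Ctr 1 and αGlu 1, which is inside the fold limit for a call. Slfn5 shared none of its 50-base words with another Schlafen gene, and its antisense neighbour Slfn5os had 0 reads.

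Slfn1, whose forced expression halts the growth of thymocytes, had the deepest drop in a single library. It measured 2.82, 85.8 and 98.3 CPM in Ctr 1, 2 and 3, or 62, 2052 and 2118 reads. In αGlu 1, 2 and 3 it was 96.9, 102 and 70.8 CPM. Ctr 2 and Ctr 3 lay within the range of the αGlu libraries. The log2 fold change of 0.53 ± 1.02 (SE, edgeR adjusted p = 0.754) became -0.02 ± 0.19 (SE, edgeR adjusted p = 0.947) without Ctr 1.

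Slfn2, which keeps T cells and monocytes quiescent, measured 358, 541 and 594 CPM in Ctr 1, 2 and 3. In αGlu 1, 2 and 3 it was 626, 547 and 509 CPM. The groups overlapped, and the log2 fold change of 0.17 ± 0.21 (SE, edgeR adjusted p = 0.619) became -0.01 ± 0.15 (SE, edgeR adjusted p = 0.979) without Ctr 1. Slfn2 was the steadiest member, with an SD of log2 CPM over the 6 libraries of 0.29, beside a median of 0.23 over all genes tested.

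Slfn3, known from the differentiation of intestinal epithelium, measured 7.04, 14.8 and 14.6 CPM in Ctr 1, 2 and 3. In αGlu 1, 2 and 3 it was 23.8, 13.5 and 11.6 CPM. The groups overlapped, with αGlu 1 the highest library, and the log2 fold change was 0.42 ± 0.39 (SE, edgeR adjusted p = 0.503). Slfn3 lies next to Slfn4 on the same strand, and 7.39% of its 50-base words occur in Slfn4, yet the pair came apart. Reads of Slfn4 per read of Slfn3 were 0.0839, 0.637 and 0.819 in Ctr 1, 2 and 3 and 0.942, 7.75 and 5.67 in αGlu 1, 2 and 3.

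**Figure D3:**
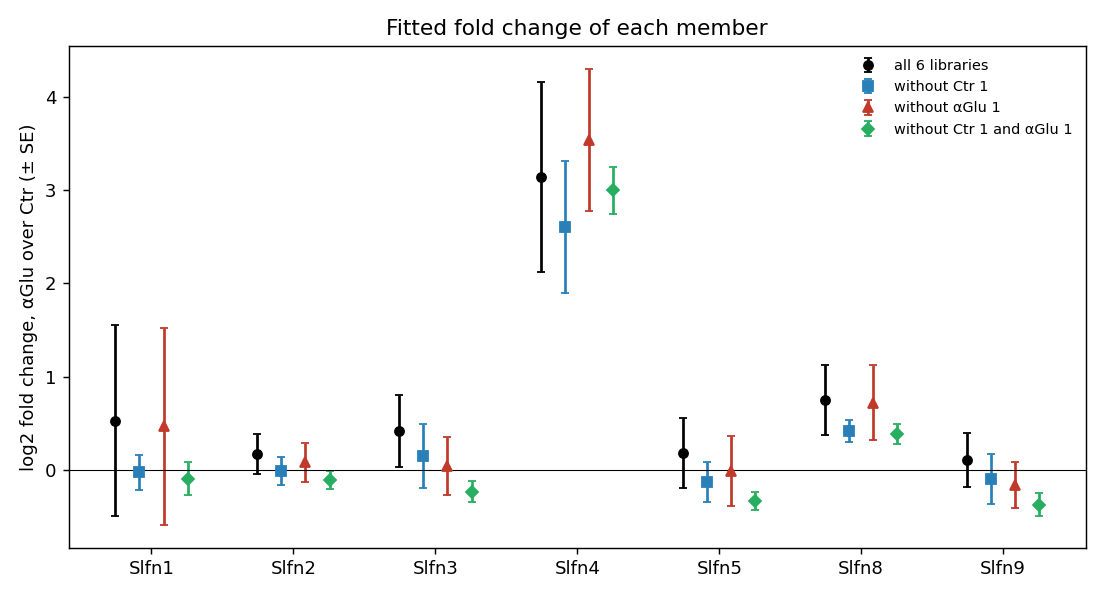
Fitted log2 fold change (αGlu over Ctr) of each member with its standard error, from all 6 libraries and without Ctr 1, without αGlu 1 and without both. Slfn4 stayed between 2.60 and 3.53 and Slfn8 between 0.39 and 0.75, while Slfn1, Slfn2, Slfn3, Slfn5 and Slfn9 were at or below 0 in at least 1 of these fits.

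Over the 7 members the median log2 fold change was 0.42 with all 6 libraries and all 7 values were above 0, beside a median of 0.02 over all genes tested. Without Ctr 1 the median over the members was -0.01, with 3 of 7 values above 0, beside 0.03 over all genes tested. Ctr 1 was the lowest library for all 7 members, which held for 21.5% of genes tested. It was lower than every other library by more than 2-fold for 3 members, Slfn1, Slfn4 and Slfn8, and for 1.64% of genes tested. The mean of Ctr 2 and Ctr 3 over Ctr 1 was 32.7 for Slfn1 and 18.1 for Slfn4, and between 1.59 and 2.68 for the other 5 members.

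The fixed list of 27 interferon-stimulated genes, the wider set to which Schlafens belong, had its lowest value in Ctr 1 for all 27 genes, for 24 of them by more than 2-fold. Its summed level was 1791 CPM in Ctr 1, 6721 and 7013 CPM in Ctr 2 and Ctr 3, and 8344, 6805 and 5933 CPM in αGlu 1, 2 and 3. The mean of Ctr 2 and Ctr 3 over Ctr 1 had a median of 4.30 over the list and reached 18.8 for Ifit3, so that Slfn1 lay above the range of the list and Slfn4 near its top. The mean of αGlu over that of Ctr 2 and Ctr 3 had a median of 1.09 and was highest for Oasl1, at 2.07, beside 6.01 for Slfn4. By the test 0 of 27 genes were called, 0 had an unadjusted p under 0.05 (beside 12.7% higher and 11.9% lower among all genes tested), and 11 (beside 14.2% of all genes tested) lay without overlap above the Ctr libraries. No gene of the list was called without αGlu 1, and without both Ctr 1 and αGlu 1 there was 1 call higher and 1 lower, beside 8.28% and 9.9% of all genes tested. The median log2 fold change of the list was 0.52, and 0.14 without Ctr 1. Of the 11, Parp9 and Parp14, ADP-ribosyltransferases of the antiviral response, had log2 fold changes of 0.61 ± 0.27 (SE, edgeR adjusted p = 0.224) and 0.64 ± 0.32 (SE, edgeR adjusted p = 0.261). The part of the lower interferon-stimulated level of Ctr 1 in the values of the members was not tested.

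**Figure D4:**
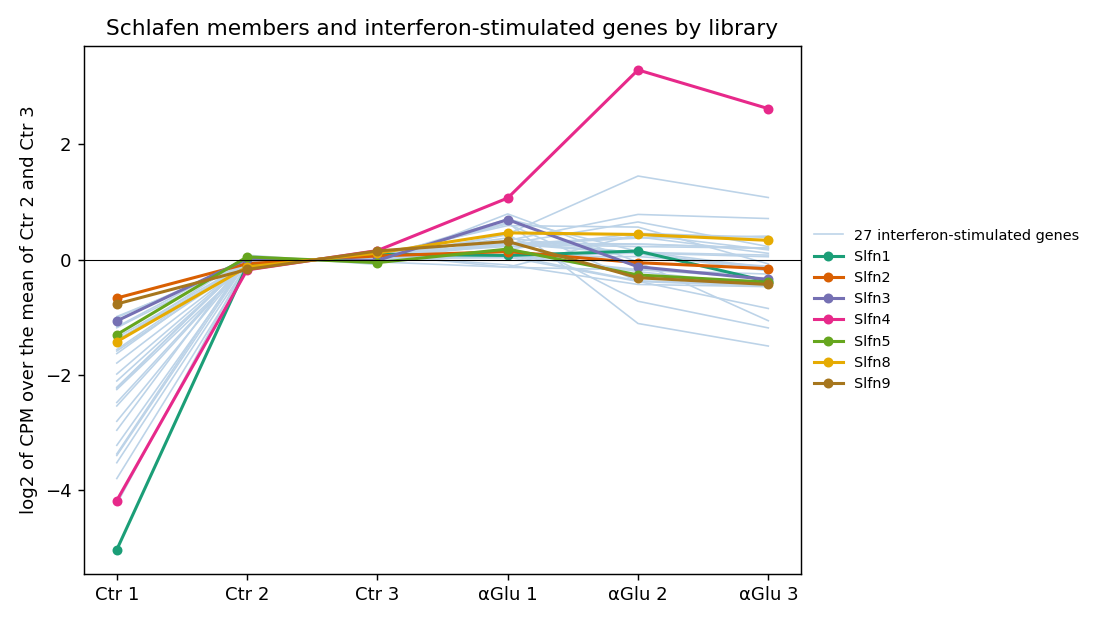
Log2 of CPM over the mean of Ctr 2 and Ctr 3, per library, for the 7 members (coloured) and 27 interferon-stimulated genes (pale); lines join the values of 1 gene and imply no order of libraries. All lines are low in Ctr 1, where Slfn1 is lowest, and Slfn4 lies above every other line in the αGlu libraries.

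Among 12 genes of interferon signalling, 11 were tested, 0 were called, 3 were higher and 0 lower in αGlu at an unadjusted p under 0.05, and 5 lay without overlap above Ctr, beside 12.7%, 11.9% and 14.2% of all genes tested. Without αGlu 1, and also without Ctr 1 and αGlu 1, 4 of the 11 were called higher and 0 lower, beside 8.05% and 8.28% of all genes called higher. The median log2 fold change of this list was 0.90, and 0.56 without Ctr 1 and 1.09 without αGlu 1, beside 0.02, 0.03 and 0.01 over all genes tested. Socs1, the feedback inhibitor of cytokine receptors, measured 7.27, 8.94 and 9.23 CPM in Ctr 1, 2 and 3 and 12.2, 38.6 and 39.6 CPM in αGlu 1, 2 and 3. Like Slfn4 it was highest in αGlu 2 and αGlu 3, without a low value in Ctr 1 of the size seen for Slfn4. For Socs1 the log2 fold change was 1.83 ± 0.45 (SE, edgeR adjusted p = 0.156). It was called by DESeq2 (1.82, adjusted p = 0.00258) and without αGlu 1 (2.20 ± 0.11, SE, edgeR adjusted p = 5.54e-05). Ifnar2, a chain of the type I interferon receptor, had a log2 fold change of 0.95 ± 0.28 (SE, edgeR adjusted p = 0.159) and was called without αGlu 1 (1.21 ± 0.11, SE, edgeR adjusted p = 0.000461). Ifnb1, the ligand, had 0 reads in the Ctr libraries and in αGlu 1, 3 reads in αGlu 2 and 2 in αGlu 3.

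Of 6 genes of tRNA cleavage and protection, 0 were called, and the median log2 fold change was 0.15. At an unadjusted p under 0.05, 1 was higher in αGlu and 0 were lower, beside 12.7% and 11.9% of all genes tested. The higher gene was Rnase4, a nuclease of the angiogenin family, at 15.8, 9.45 and 18.5 CPM in Ctr and 24.4, 18.8 and 33.9 CPM in αGlu 1, 2 and 3. For Rnase4 the log2 fold change was 0.82 ± 0.31 (SE, edgeR adjusted p = 0.189). Rnh1, the inhibitor that binds angiogenin, had a log2 fold change of -0.81 ± 0.37 (SE, edgeR adjusted p = 0.230). Without αGlu 1 it was -1.33 ± 0.15 (SE, edgeR adjusted p = 0.00108), and Rnh1 was the single gene of this list called, where 10.5% of all genes were called lower. Of 10 genes of quiescence and proliferation, 0 were called, and the median log2 fold change was 0.16. At an unadjusted p under 0.05, 3 were higher and 2 lower, beside 12.7% and 11.9% of all genes tested. Without αGlu 1, 2 of the 10 were called higher and 2 lower, beside 8.05% and 10.5% of all genes tested. Cdkn1b, an inhibitor of the cell cycle, had a log2 fold change of 0.63 ± 0.18 (SE, edgeR adjusted p = 0.158), and Foxo1, a factor of quiescent cells, -0.26 ± 0.09 (SE, edgeR adjusted p = 0.177). Larger fold changes in the list went both ways. Mki67, a marker of proliferation, was at 49.2, 13.2 and 18.8 CPM in Ctr 1, 2 and 3 and 11.9, 108 and 138 CPM in αGlu 1, 2 and 3. The cyclin Ccnd1 was at 63.1, 42.0 and 68.9 CPM in Ctr and 22.8, 0.913 and 0.734 CPM in αGlu.

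The genes whose log2 CPM was most like that of a member over the 6 libraries were named from 8513 candidates by Pearson r, described here without a test, with Ctr 1 as the lowest point of every member. For Slfn1 they were Oasl2, Stat2 and Ifi213 (r of at least 0.998), which also dropped to their lowest in Ctr 1, and r fell to 0.984, 0.808 and 0.821 when Ctr 1 was left out. For Slfn2 they were Ifi204, Gbp2 and Mov10 (r of at least 0.991), interferon-induced genes, and for Slfn3 Zc3hav1, the antiviral protein ZAP, with Rbm26 and Arel1 (r of at least 0.979).

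For Slfn4 the closest genes were Isg20, an interferon-induced exonuclease (r = 0.998), the class I gene H2-Q6 (r = 0.997) and Gnl2 (r = 0.996), and r was 0.996, 0.991 and 0.986 without Ctr 1. Isg20 measured 1.54, 7.94 and 7.80 CPM in Ctr 1, 2 and 3 and 11.5, 25.3 and 20.6 CPM in αGlu 1, 2 and 3. H2-Q6 measured 13.4, 105.4 and 92.7 CPM in Ctr and 173, 546 and 405 CPM in αGlu 1, 2 and 3, and may share reads with near-identical class I genes. Isg20 and H2-Q6 had, as Slfn4 did, a low Ctr 1 and an αGlu 1 between Ctr and the other αGlu libraries. Gnl2 varied far less, since r does not depend on the size of a change. It measured 39.9, 44.8 and 46.2 CPM in Ctr 1, 2 and 3 and 47.4, 50.5 and 49.4 CPM in αGlu 1, 2 and 3.

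For Slfn5 the closest were Aftph, Uba7 and Rnf34 (r of at least 0.995). Those of Slfn8 were Tap1, the peptide transporter of antigen presentation, Snhg12 and the interferon-induced GTPase Iigp1 (r of at least 0.996). Iigp1 measured 1.64, 25.0 and 43.8 CPM in Ctr 1, 2 and 3 and 99.2, 101 and 99.5 CPM in αGlu 1, 2 and 3, so its αGlu libraries were as close together as those of Slfn8. For Slfn9 they were Gps2, Pnpt1 and Cln3 (r of at least 0.987), which like Slfn9 were near 0 in fold change, with log2 values between 0.04 and 0.08.

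Since Slfn4 is also a transcript of neutrophils and monocytes, their markers are given beside it. Of 9 neutrophil markers, Ly6g and Retnlg were at 0 reads in every library and 3 passed the low-count filter. The list summed to 107, 147 and 160 CPM in Ctr 1, 2 and 3 and to 186, 539 and 609 CPM in αGlu 1, 2 and 3, nearly all of it from Csf3r. Other markers of the list differed in direction. S100a9 was at 0.954, 0.794 and 0.139 CPM in Ctr and 0.115, 0.0630 and 0 CPM in αGlu 1, 2 and 3. Ngp was at 0.909, 1.63 and 0.418 CPM in Ctr and 0.401, 0 and 0 CPM in αGlu, and Mpo had a log2 fold change of -1.49 (edgeR adjusted p = 0.477). S100a8 was at 0.909, 0.752 and 0.510 CPM in Ctr and 0.574, 2.11 and 1.32 CPM in αGlu 1, 2 and 3. Of 4 monocyte markers, Ccr2 measured between 11.2 and 16.0 CPM in Ctr and 2.41, 0.409 and 0.844 CPM in αGlu 1, 2 and 3, whereas Ly6c2 was at most 0.460 CPM in Ctr and 0.401, 7.15 and 5.83 CPM in αGlu. The list summed to 12.1 to 16.6 CPM in Ctr and to 4.01 to 11.0 CPM in αGlu. Their part in the values of Slfn4 was not tested.

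Of the remaining Schlafen rows of the table, Slfn14 had 1 read in Ctr 3 and 1 in αGlu 2, and the Schlafen-like gene Slfnl1 had 1 read in αGlu 2.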

How the data were processed

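Per the labels, total RNA of 6 M2 macrophage cultures was made into stranded mRNA libraries, and the genome build is GRCm38. The authors annotated and normalized the reads in a QIAGEN analysis portal. Its aligner and annotation are not given in the sources used here. The deposited counts are whole reads per gene, and the deposited TPM values scale them by exon length and depth. Other deposited columns were not used.

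Counts were tested in edgeR 4.0.16 (R 4.3.3) after filterByExpr (minimum count 10, minimum total 15) and TMM scaling, by a two-sided quasi-likelihood test of group with Benjamini-Hochberg adjustment over 11933 genes. Calls needed an adjusted p under 0.1 together with a log2 fold change beyond 1 in either direction. Log2 CPM values carry a prior count of 2. Alternatives were DESeq2 1.42.0, limma-voom (limma 3.58.1), RLE factors, library size alone, other filters, no fold limit, the replicate number as a block and each library left out. Leaving out Ctr 1 and αGlu 1 together was added after the values had been seen. The model was tested on simulated data. Promoter windows came from RefSeq and gene coordinates and transcripts from GENCODE release M21. Windows were aligned with Biopython 1.88.

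Named were the 7 members, for each member the 3 non-member genes of highest Pearson r (mean log2 CPM 3 or more, gene models left out), the 2 tested genes of smallest unadjusted p of each pathway list, and other Schlafen rows. Genes outside this rule (Csf1r, Adgre1, Retnla, Mgl2, Arg1, Trac, Cd3g, Ly6g, Retnlg, Csf3r, S100a8, S100a9, Ngp, Mpo, Ccr2, Ly6c2, Ifnb1, Ifit3, Oasl1, Mki67 and Ccnd1) were chosen from the lists after their values were seen. Members and lists were chosen with earlier results of these data known.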

Additional observations from a re-analysis of the deposited data

How the results depend on the processing

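Without each library in turn, the number of genes called ranged from 0 to 2290 and of members called from 0 to 1, both highest without αGlu 1. DESeq2 called 1117 genes (579 higher, 538 lower) and 1 member. Without Ctr 1 and αGlu 1, chosen after the data had been examined, 2226 genes and 1 member were called. No other alternative called a member. Genes without overlap numbered 3599 (1697 higher, 1902 lower). They were 4493 without Ctr 1, 7851 without αGlu 1 and 8755 of 11933 (4443 higher, 4312 lower) without both libraries. In that last setting 5 of 7 members did not overlap, a share close to that of all genes tested. Slfn4 and Slfn8 were higher and Slfn3, Slfn5 and Slfn9 lower. Library size alone gave 2144 higher and 1541 lower genes and deposited TPM 2565 and 1392. The same 2 members lay apart under both.

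With the replicate number as a block, 17 genes and 0 members were called, and Slfn4 had a log2 fold change of 3.48 ± 0.56 (SE, edgeR adjusted p = 0.142). Deviations from the group means correlated at 0.08, 0.07 and 0.16 between libraries of the same number and at -0.11 to 0.05 between others. Each library thus correlated best with its own number. These low values do not settle whether the numbers are pairs, which the labels do not say. The study used a paired t test for the level of the fragment in such transfected Mφs.

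Log2 fold changes changed sign for several genes. With each library left out in turn, the ranges were Slfn1 -0.0247 to 1.02, Slfn2 -0.0084 to 0.32, Slfn3 0.0420 to 0.62, Slfn5 -0.13 to 0.40, Slfn9 -0.16 to 0.33, Ifi213 -0.0414 to 0.93, Ifi204 -0.12 to 0.51, Mov10 -0.0845 to 0.31, Zc3hav1 -0.0046 to 0.20, Aftph -0.0765 to 0.19, Uba7 -0.0515 to 0.34, Rnf34 -0.0961 to 0.22, Gps2 -0.0366 to 0.13, Pnpt1 -0.0464 to 0.20 and Cln3 -0.0513 to 0.12. Without both libraries they were -0.0919 for Slfn1, -0.11 for Slfn2, -0.23 for Slfn3, -0.33 for Slfn5 and -0.37 for Slfn9. The cause was not tested. The adjusted p of Slfn4 over all alternatives ranged from 0.000304 to 0.427. With 3 libraries a group and 13 reads of Slfn4 in Ctr 1, the fold change of Slfn4 is known to no better than its standard error of 1.02.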
